A study of Mus musculus with 12 samples.

Results

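Rab GTPases are small membrane switches, and their genes were followed here across 4 sorted mouse blood progenitor populations. Members were all genes whose single annotated symbol is Rab followed by a number, with or without a letter and a further digit. This rule found 59 Rab genes among the 18193 genes with a probe set of a single symbol, and 132 of the 45037 probe sets. A gene with several probe sets was represented by the one with the largest standard deviation (SD) over the 12 arrays, a choice that uses the values but not the population labels.

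A Rab protein is anchored in a membrane by prenyl groups and works as a switch: bound to GTP it recruits effector proteins such as motors, tethers and sorting factors, and bound to GDP it is inactive. Exchange factors turn it on, GTPase-activating proteins turn it off, and a GDP dissociation inhibitor carries it between membranes. Each Rab marks its own compartments along the secretory and endocytic routes, and in blood cells Rabs are best known for granule release, lysosome-related organelles, phagosomes and receptor recycling.

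The study measured bone marrow progenitors of female C57BL/6 mice aged 4 to 6 weeks on Affymetrix expression arrays, with 3 arrays per population and about 80000 sorted cells for each. All 4 populations were negative for mature lineage markers, positive for CD117 (the receptor Kit) and negative for Sca-1. Common myeloid progenitors (CMP) were sorted as CD34+ and CD16/32-, and were split by CD27, a receptor of the tumour necrosis factor family, into a CD27+ and a CD27- fraction. Granulocyte-monocyte progenitors (GMP) were CD34+, CD16/32+ and CD27+, and megakaryocyte-erythroid progenitors (MEP) were CD34-, CD16/32- and CD27-. No animal carried a transgene or was treated, as far as the labels say. Each label marks its array as a numbered biological repeat, without saying whether the repeats were separate animals, pools or sorts. P-values therefore measure the spread between these arrays, and what that spread includes is not known.

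The deposited values were log2 signals in which each probe set had been centred on its median over the 12 arrays. A value of 2.00 therefore means 2.00 log2 units above that probe set's own median, and levels cannot be compared between genes. A probe set that stays near 0 on every array can be evenly present or absent, and the files do not tell these apart. Array medians lay between -0.03 and 0.05. In the checks of the sort markers, Cd27 lay at 4.10 ± 0.15 (SD, n = 3) in CD27+ CMP and 2.68 ± 0.40 in GMP, against -2.75 ± 0.44 in CD27- CMP and -3.05 ± 0.10 in MEP. Cd34 went against the sort label of 1 population: it lay at -3.22 ± 0.61 in CD27- CMP, which were sorted as CD34+, against 4.10 ± 0.10 in CD27+ CMP, 3.03 ± 0.15 in GMP and -4.91 ± 1.71 in the CD34- MEP. By limma the CD27- CMP and MEP values of Cd34 were not separated (log2 difference 1.69, SE 0.70, adjusted p = 0.76). Fcgr3 and Fcgr2b encode the Fc receptors stained to sort GMP as positive and the other populations as negative. For Fcgr3 and Fcgr2b, CD27+ CMP nevertheless lay above MEP by 3.84 and 7.16 (limma adjusted p = 0.0012 and 6.3e-07). CD27+ CMP differed from GMP by -4.95 and -1.40 (adjusted p = 0.0015 and 0.062). CD27- CMP differed from MEP by -0.87 and 0.48 (adjusted p = 0.82 for each).

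Marker lists for other cell types moved with the populations, and their part in the Rab differences was not tested. The mean of 6 erythroid markers lay between -4.22 and -3.22 on the CD27+ CMP arrays and between -5.50 and -3.09 on the GMP arrays, against 2.86 to 3.08 on the CD27- CMP arrays and 2.95 to 3.17 on the MEP arrays. The mean of 8 granulocyte-monocyte markers ran the other way, at 2.93 to 3.45 and 3.05 to 3.63 in CD27+ CMP and GMP, against -3.44 to -2.76 and -4.62 to -3.09 in CD27- CMP and MEP. Mast cell, basophil and eosinophil markers (8 measured) were highest in GMP at 2.36 to 2.79, followed by CD27+ CMP at 1.15 to 1.42, with CD27- CMP at -1.26 to -1.21 and MEP at -1.52 to -1.31. Megakaryocyte and platelet markers (6 of 7 measured) were highest on the CD27- CMP arrays, at 0.63 to 2.35, next to 0.19 to 1.07 in MEP, -0.48 to -0.11 in CD27+ CMP and -1.90 to -0.67 in GMP. Early lymphoid markers (6 measured) reached 3.98 to 4.10 in CD27+ CMP against 0.99 to 1.24 in GMP. Of the markers of other mature cells, 3 of 4 measured for B cells, 5 of 7 for T and NK cells, 3 of 5 for dendritic cells and 3 of 5 for stroma and endothelium ranged by less than 0.5 log2 over all arrays. The others moved with the populations, apart from a dendritic cell marker other than Itgax. CD27+ CMP were above CD27- CMP by 5.10 for Cd79b, 4.996 for Pecam1, 4.20 for Pdgfrb, 3.19 for Nkg7, 2.02 for Klrd1 and 0.44 for Itgax. All of these were called by limma as defined below. GMP were above MEP by 6.47 for Nkg7, 6.01 for Cd79b, 4.41 for Pecam1 and 3.05 for Pdgfrb, also called.

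Promoter sequences are shown for 5 genes that moved far and in opposite directions, so that the members that moved together can be compared with one that moved against them. They are the 250 bases before the start site, from RefSeq on GRCm38.p6, read 5′ to 3′ on the strand of the gene, and 48 of the 59 Rab genes had an entry, with 60 promoters in all. Capitals mark matches, on either strand, to GAGGAAGT (bound by PU.1), AGATAA (bound by the family of Gata1), TTGCNNAA (bound by C/EBP factors) or CACGTG (the E-box).

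The Rab31 promoter is at chr17:65772753-65773002, minus strand, and holds none of the 4 motifs.
Rab31: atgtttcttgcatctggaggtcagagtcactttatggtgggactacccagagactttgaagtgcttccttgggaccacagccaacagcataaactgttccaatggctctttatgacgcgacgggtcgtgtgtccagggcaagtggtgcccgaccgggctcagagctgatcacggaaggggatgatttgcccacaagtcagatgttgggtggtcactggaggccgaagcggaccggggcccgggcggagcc
Of the Rab27a promoters, the one at chr9:73063898-73064147, plus strand, holds an E-box.
Rab27a: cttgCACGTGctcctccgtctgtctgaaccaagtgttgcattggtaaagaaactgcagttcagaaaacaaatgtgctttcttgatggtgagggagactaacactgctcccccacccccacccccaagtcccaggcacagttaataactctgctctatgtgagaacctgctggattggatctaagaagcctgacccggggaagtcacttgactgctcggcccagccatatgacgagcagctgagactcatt
The Rab32 promoter at chr10:10558208-10558457, minus strand, holds the long PU.1 motif.
Rab32: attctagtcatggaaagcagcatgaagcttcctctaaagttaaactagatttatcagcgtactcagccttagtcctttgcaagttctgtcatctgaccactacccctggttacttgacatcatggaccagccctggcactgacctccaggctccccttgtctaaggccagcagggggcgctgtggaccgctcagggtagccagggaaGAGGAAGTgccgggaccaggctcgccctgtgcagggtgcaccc
The Rab3d promoter at chr9:21918184-21918433, minus strand, holds none of the 4.
Rab3d: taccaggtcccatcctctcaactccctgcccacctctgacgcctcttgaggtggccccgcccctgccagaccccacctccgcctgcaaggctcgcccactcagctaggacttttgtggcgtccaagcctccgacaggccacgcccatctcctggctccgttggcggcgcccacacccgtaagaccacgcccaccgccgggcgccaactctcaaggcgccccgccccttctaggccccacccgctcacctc
Rab22a, which moved the other way, has its promoter at chr2:173659595-173659844, plus strand, also with none of the 4.
Rab22a: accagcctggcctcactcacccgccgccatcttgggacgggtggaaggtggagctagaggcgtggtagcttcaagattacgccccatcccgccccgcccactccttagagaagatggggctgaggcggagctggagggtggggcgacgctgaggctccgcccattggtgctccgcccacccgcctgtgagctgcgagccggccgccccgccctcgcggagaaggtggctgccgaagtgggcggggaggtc

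Of the 12 Rab genes with the largest range of group means, 7 had an entry, with 9 promoters. Among those 9 promoters the long PU.1 motif GAGGAAGT was in 1 (Rab32), AGATAA in 1 (Rab34), CACGTG in 1 (Rab27a) and TTGCNNAA in 0. Over all 32851 promoters in the table the same motifs were in 2.44%, 9.99%, 6.02% and 9.56%, and over the 60 Rab promoters in 3.33%, 3.33%, 8.33% and 6.67%. The short PU.1 core GAGGAA, which the long motif contains, was in 13.3% of Rab promoters and 23.3% of all. CACCC, a short motif of Klf factors, was in all 9 of the promoters of these 7 genes, in 68.3% of Rab promoters and in 52.0% of all, and the longer CCACACCC that contains it in 5% and 3.20%. The 8-letter E-boxes GTCACGTG and TCACGTGA were each in 3.33% of Rab promoters, against 1.85% and 0.785% of all. A match is a run of letters and not a shown binding site.

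In the whole family, 28 of the 59 Rab genes (47.5%) differed between at least 1 pair of populations, against 5866 of 18193 genes (32.2%). A gene was called when its Benjamini-Hochberg adjusted p from limma over all genes was under 0.05. Of the 31 Rab genes called in none of the 6 comparisons, 10 ranged by less than 0.5 log2 over the 12 arrays and 21 by more. Rab genes more often had several probe sets to choose from than other genes did (38 of 59, or 64.4%, against 49.5% of all genes), and fewer of them were flat: 16.9% ranged by less than 0.5 log2, against 41.1% of all genes. Of the 28 called genes, 12 had their highest group mean in GMP, 8 in CD27+ CMP, 5 in MEP and 3 in CD27- CMP. Because the arrays measured bulk RNA, fewer cells that express a Rab and less of its RNA per cell cannot be told apart.

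**Figure D1:**
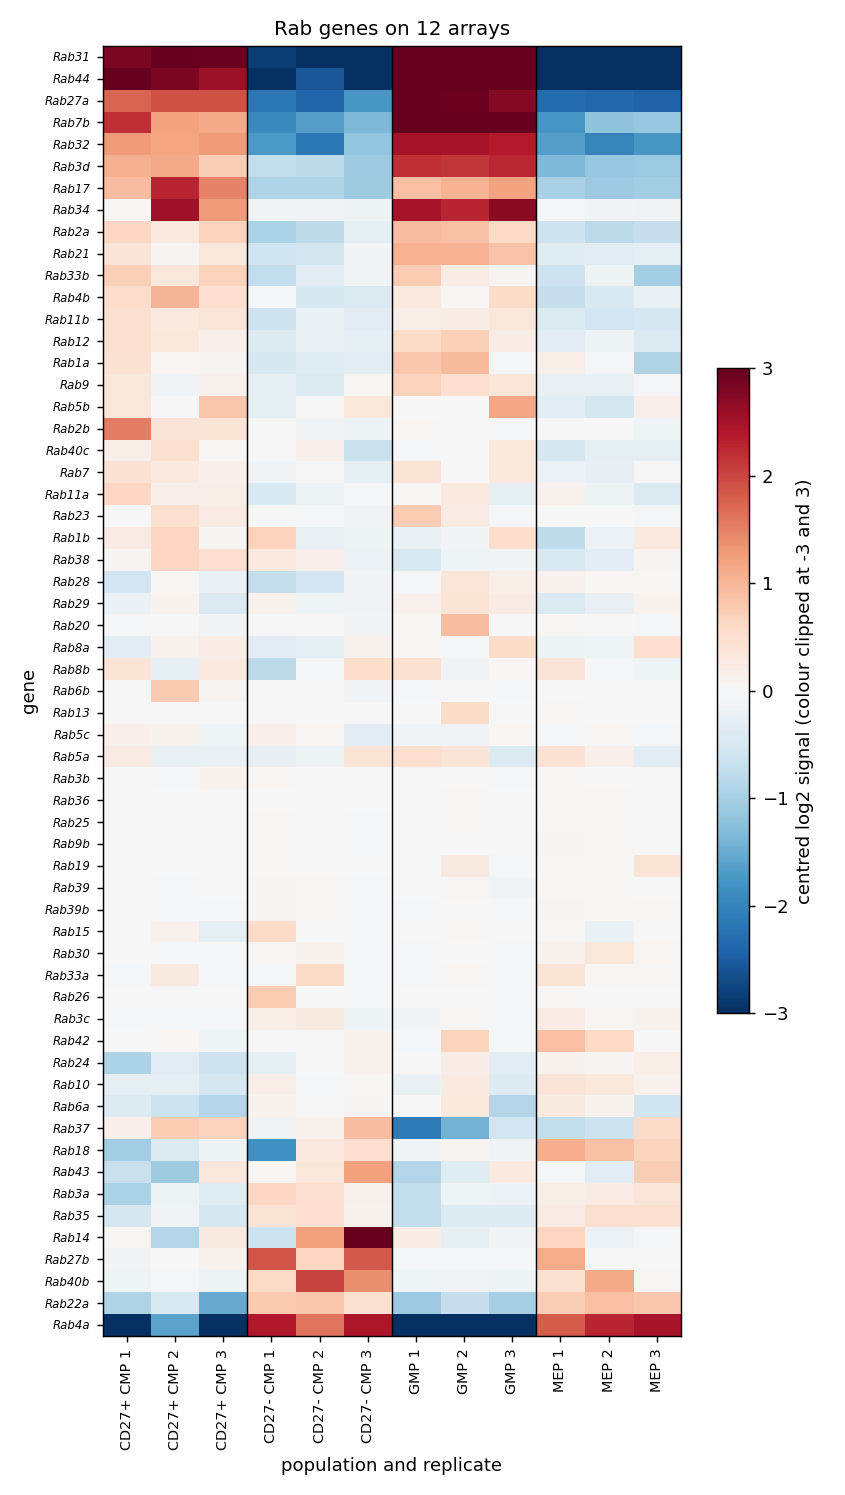
Centred log2 signal of all 59 Rab genes (rows) on the 12 arrays (columns, grouped by population), with colour clipped at -3 and 3. CD27+ CMP and GMP columns share the strongly raised genes at the top (Rab31, Rab44, Rab27a, Rab7b, Rab32, Rab3d), CD27- CMP and MEP columns share the raised Rab4a and Rab22a at the bottom, and many rows in between stay near 0.

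The CMP fractions were compared first, since the split by CD27 is the study's own. CD27+ CMP carried far more Rab31, Rab44, Rab27a, Rab7b, Rab32, Rab17 and Rab3d transcript than CD27- CMP, by 1.86 to 6.24 log2 units, and far less Rab4a, with a difference of -5.26. In all, 22 Rab genes were called, 15 higher and 7 lower in CD27+ CMP, which is 37.3% of the family beside a background of 22.4% of all genes (12.1% higher, 10.3% lower). The median size of the difference was 0.41 log2 for Rab genes and 0.16 for all genes. With the mean of all probe sets of a gene in place of the most variable one, 23 Rab genes (39.0%) and 23.4% of all genes were called. Among genes that ranged by at least 0.5 log2 the shares lay closer, with 44.9% of 49 Rab genes and 42.6% of all genes called.

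GMP and MEP, which share no array with the CMP fractions, were compared in the same way. Of the 59, 19 were called, 16 higher and 3 lower in GMP, or 32.2% beside a background of 22.9% of all genes (11.5% higher, 11.3% lower). Among genes that ranged by at least 0.5 log2 the order was the other way, with 38.8% of 49 Rab genes and 42.6% of all genes called. The labels' replicate numbers paired the GMP arrays with those of MEP and of CD27+ CMP, by correlated deviations, and for these comparisons calls that a replicate block changes are given below. The 2 comparisons had 17 called Rab genes in common, all 17 in the same direction, which is 77.3% of the Rab calls between the CMP fractions and 89.5% of those between GMP and MEP. For all genes the shared calls were 76.5% and 75.1% of the lists, and 3111 of 3121 ran the same way, so the overlap of the Rab genes was near that of all genes. Rab24, Rab27b, Rab2b, Rab3a and Rab40b were called between the CMP fractions and missed the threshold between GMP and MEP, and the reverse held for Rab34 and Rab9. For none of these 7 genes did the test of the difference between the differences pass.

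**Figure D2:**
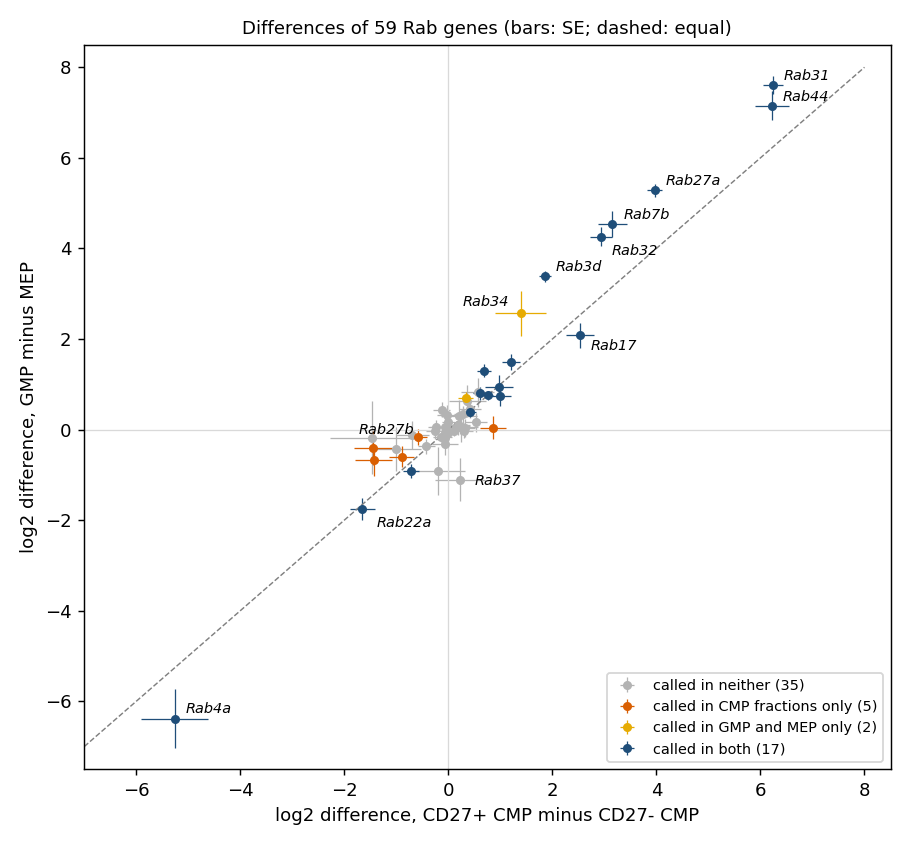
Log2 difference of each of the 59 Rab genes between CD27+ and CD27- CMP (horizontal) and between GMP and MEP (vertical), with standard errors from limma as bars and a dashed line of equal differences. The 17 genes called in both lie in the upper right and lower left. Rab31, Rab27a and Rab3d lie above the line, as do others such as Rab44, Rab7b and Rab32.

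Early endosome Rabs sort cargo just after uptake, and 4 of 8 were called in each of these comparisons, 3 higher (Rab31, Rab17, Rab21) and 1 lower (Rab22a). For this and every role below, the background was 22.4% of all genes between the CMP fractions and 22.9% between GMP and MEP. Among genes that ranged by at least 0.5 log2 it was 42.6% in each. The median log2 difference of early endosome Rabs was 0.23 between the CMP fractions and 0.48 between GMP and MEP, against -0.03 and -0.04 for all genes. Rab31, also named Rab22b, moves cargo between the trans-Golgi network and endosomes and on its most variable probe set differed by more than any other member. Rab31 lay at 2.83, 3.07 and 2.95 on the CD27+ CMP arrays and at 3.01, 3.00 and 3.29 on the GMP arrays. On the CD27- CMP arrays Rab31 lay at -2.83, -3.31 and -3.73, and on the MEP arrays at -4.48, -4.50 and -4.53. Both high populations were thus close together, and every one of their arrays was above every array of the low populations. The difference between the CMP fractions was 6.24 (SE 0.19, limma adjusted p = 3.5e-08), or 75.7-fold, and that between GMP and MEP 7.61 (adjusted p = 9.5e-09). A second probe set of Rab31 gave 1.58 between the CMP fractions, so the direction was shared and the size was not. Over the alternatives the difference between the CMP fractions ran from 3.91 to 6.47 for Rab31, against 6.01 to 6.61 for Rab44, described below.

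Rab22a is the closest relative of Rab31 and acts on early endosomes and recycling tubules. It lay at -0.91, -0.46 and -1.52 in CD27+ CMP and at -1.09, -0.70 and -1.01 in GMP. Rab22a values in CD27- CMP were 0.79, 0.83 and 0.46, and in MEP 0.75, 0.90 and 0.81. The high and low populations were exchanged relative to Rab31, again with no overlap. Rab22a had a log2 difference of -1.65 between CD27+ and CD27- CMP (SE 0.24, limma adjusted p = 0.00069) and of -1.75 between GMP and MEP (adjusted p = 0.00044). Its other probe sets gave -1.28, -1.04 and -0.05 between the CMP fractions.

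Rab17, an endosomal Rab best known for transport across epithelial cells, lay at 0.94, 2.28 and 1.50 in CD27+ CMP and at 0.90, 1.04 and 1.20 in GMP. The CD27- CMP arrays gave -0.90, -0.91 and -1.06 and the MEP arrays -0.97, -1.08 and -1.05. Rab17 was thus high in the same populations as Rab31, with the widest spread in CD27+ CMP and no overlap with the low populations. The log2 differences were 2.53 (SE 0.27, limma adjusted p = 0.0001) between the CMP fractions and 2.08 (adjusted p = 0.00034) between GMP and MEP, and its second probe set gave 0.55 in the first. Rab21, which traffics integrins, had smaller differences of 0.69 (limma adjusted p = 0.0044, but 0.052 in the fit on the CMP fractions alone) and 1.30, and its highest mean, 0.98 ± 0.11, in GMP. Rab5a, Rab5b and Rab5c, the core Rabs of early endosome fusion, were called in no comparison, though with the replicate block Rab5b was called between GMP and MEP (0.62, limma adjusted p = 0.037, against 0.26 without). Rab20, linked to phagosomes, was not called either.

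Recycling endosome Rabs return receptors to the surface, and 4 of 8 were called in each of these comparisons, 2 higher (Rab4b, Rab11b) and 2 lower (Rab4a, Rab35). Rab4a, which drives fast recycling from early endosomes, had the largest difference in the lower direction. Its values were -4.22, -1.61 and -3.50 in CD27+ CMP and -5.10, -3.47 and -4.01 in GMP. Rab4a reached 2.40, 1.61 and 2.44 in CD27- CMP and 1.81, 2.27 and 2.48 in MEP. The low arrays spread more widely than the high arrays, and the groups did not overlap. Rab4a differed by -5.26 (SE 0.65, limma adjusted p = 0.00027) between the CMP fractions and by -6.38 (adjusted p = 6.8e-05) between GMP and MEP, and a second probe set gave -4.29 in the first.

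Rab4b, the near twin of Rab4a in the same recycling step, ran the opposite way. It lay at 0.54, 1.02 and 0.49 in CD27+ CMP and 0.28, 0.03 and 0.55 in GMP, against -0.03, -0.47 and -0.42 in CD27- CMP and -0.68, -0.46 and -0.19 in MEP. Its differences were 0.99 (SE 0.20, limma adjusted p = 0.0058) between the CMP fractions and 0.73 (adjusted p = 0.027) between GMP and MEP. The second call was lost without GMP replicate 1 or 3 or MEP replicate 1 or 2, with adjusted p up to 0.097, and with the replicate block (adjusted p = 0.059).

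Rab11b and Rab11a serve the slow recycling route. Rab11b lay at 0.48, 0.29 and 0.37 in CD27+ CMP and 0.21, 0.22 and 0.34 in GMP, against -0.62, -0.21 and -0.33 in CD27- CMP and -0.42, -0.58 and -0.51 in MEP. Its differences of 0.77 and 0.76 were called (limma adjusted p = 0.00039 and 0.0004). Over the alternatives they fell to as little as 0.40 and 0.22, with both calls kept. Between CD27- CMP and GMP the Rab11b call was lost with the mean of its 3 probe sets (-0.17, limma adjusted p = 0.13). Rab11a was not called in any comparison: its values were 0.62, 0.16 and 0.18 in CD27+ CMP, -0.46, -0.16 and -0.03 in CD27- CMP, 0.03, 0.30 and -0.29 in GMP, and 0.14, -0.15 and -0.43 in MEP. Rab35, which works in recycling and cytokinesis, fell with Rab4a, at means of -0.38 ± 0.24 in CD27+ CMP and -0.51 ± 0.19 in GMP against 0.34 ± 0.22 in CD27- CMP and 0.40 ± 0.13 in MEP. Rab35 differed by -0.72 (limma adjusted p = 0.0076) and -0.92 (adjusted p = 0.0018). Rab14, between Golgi and endosomes, had the widest range of the uncalled members, 4.14 log2, which came from the CD27- CMP arrays at -0.65, 1.24 and 3.25. Its 7 probe sets gave differences between the CMP fractions from -1.47 to 0.50.

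**Figure D3:**
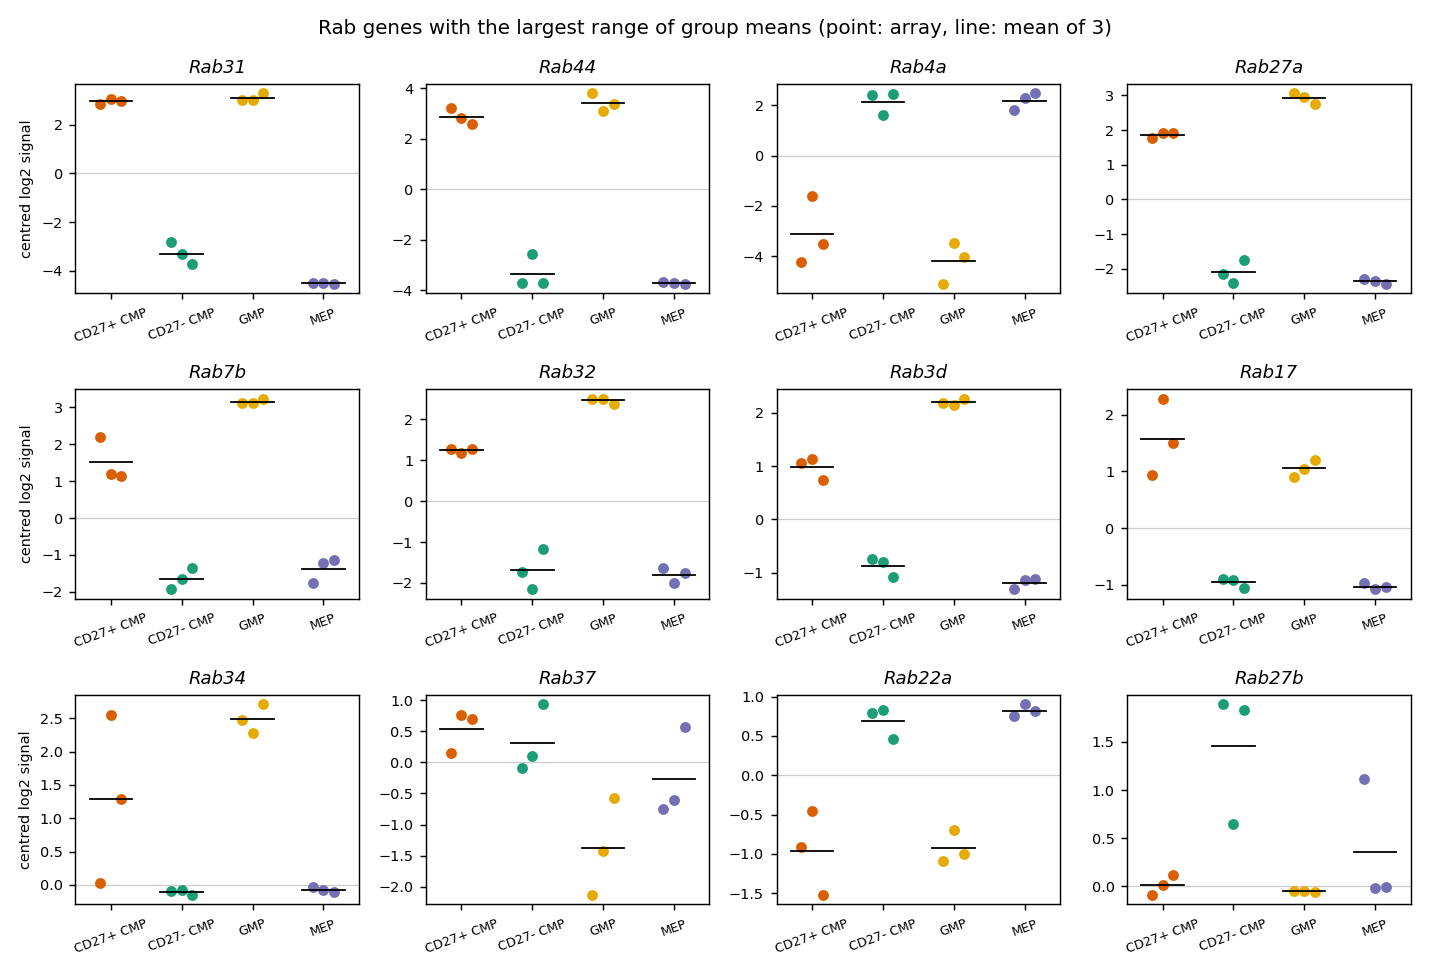
Centred log2 signal on each array (points) with the mean of 3 arrays (lines) for the 12 called Rab genes with the largest range of group means. Rab31 and Rab44 stand near 3 in CD27+ CMP and GMP and below -2 in the others, Rab4a is the reverse, and Rab27a, Rab7b, Rab32 and Rab3d are higher in GMP than in CD27+ CMP.

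Secretory granule Rabs dock and release granules. Between the CMP fractions 5 of 9 were called, with 3 higher (Rab27a, Rab44, Rab3d) and 2 lower (Rab27b, Rab3a), beside the background of 22.4% of all genes. Between GMP and MEP 3 of 9 were called, all higher in GMP. Rab44 is a large Rab with extra domains that has been studied in mast cell and osteoclast lysosomes. It lay at 3.24, 2.82 and 2.57 in CD27+ CMP and 3.81, 3.09 and 3.36 in GMP. The low populations were at -3.72, -2.57 and -3.74 in CD27- CMP and -3.70, -3.73 and -3.75 in MEP. Rab44 had a pattern close to that of Rab31, with no overlap between high and low arrays. It differed by 6.22 (SE 0.32, limma adjusted p = 8.7e-07), or 74.7-fold, between the CMP fractions and by 7.15 (adjusted p = 2.9e-07) between GMP and MEP, on its 1 probe set.

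Rab27a carries granules and melanosomes to the plasma membrane, and its loss causes Griscelli syndrome with immune defects. It lay at 1.76, 1.91 and 1.92 in CD27+ CMP and 3.06, 2.95 and 2.76 in GMP. In CD27- CMP it lay at -2.16, -2.40 and -1.76 and in MEP at -2.31, -2.35 and -2.43. All GMP arrays were above all CD27+ CMP arrays, and both were above the other populations. The differences were 3.97 (SE 0.15, limma adjusted p = 1e-07) between the CMP fractions and 5.29 (adjusted p = 1.6e-08) between GMP and MEP. Of its other probe sets, those with 2.44 and 2.02 between the CMP fractions ran the same way and 1 was flat at -0.01.

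Rab27b, the partner of Rab27a on granules that is well known in platelets and mast cells, ran the other way between the CMP fractions. It lay at -0.09, 0.01 and 0.12 in CD27+ CMP and -0.05, -0.05 and -0.06 in GMP. The CD27- CMP arrays gave 1.89, 0.64 and 1.83, and the MEP arrays 1.11, -0.02 and -0.01. Rab27b was raised on all CD27- CMP arrays and on 1 of 3 MEP arrays. The difference between the CMP fractions was -1.45 (SE 0.37, limma adjusted p = 0.02), and CD27- CMP was above GMP by 1.51 (adjusted p = 0.016). Both calls were lost without CD27- CMP replicate 1 or 3. The first was also lost without CD27+ CMP replicate 1 or 2 and in the fit on the CMP fractions alone, with adjusted p up to 0.074. The megakaryocyte and platelet markers, given above, were also highest on the CD27- CMP arrays, and their part in this result was not tested.

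Rab3d sits on secretory granules of exocrine and mast cells, and it lay at 1.06, 1.13 and 0.74 in CD27+ CMP and 2.18, 2.14 and 2.26 in GMP. It lay at -0.74, -0.81 and -1.09 in CD27- CMP and -1.32, -1.14 and -1.11 in MEP. The arrays formed 3 steps, with GMP highest, CD27+ CMP next and both other populations lowest. Rab3d differed by 1.86 (SE 0.12, limma adjusted p = 3.7e-06) between the CMP fractions and 3.39 (adjusted p = 6.6e-08) between GMP and MEP, and its other probe sets gave 1.82, 1.75 and -0.03 in the first.

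Rab3a, the synaptic vesicle member of the Rab3 group, lay at -0.94, -0.14 and -0.37 in CD27+ CMP, 0.63, 0.49 and 0.12 in CD27- CMP, -0.73, -0.12 and -0.17 in GMP and 0.17, 0.24 and 0.37 in MEP. Its difference between CD27+ and CD27- CMP was -0.90 (SE 0.23, limma adjusted p = 0.02). This call was lost without CD27+ CMP replicate 1 or CD27- CMP replicate 1 or 2, and in the fit on the CMP fractions alone (adjusted p up to 0.078). Rab3b and Rab3c ranged by 0.14 and 0.43 log2 over all arrays and were not called.

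Rab37, found on granules of mast cells and neutrophils, lay at 0.15, 0.76 and 0.70 in CD27+ CMP and -0.09, 0.09 and 0.93 in CD27- CMP. The GMP arrays gave -2.13, -1.42 and -0.58 and the MEP arrays -0.75, -0.61 and 0.56. GMP was lowest and overlapped with neither CMP fraction. Rab37 in CD27- CMP was above GMP by 1.69 (SE 0.48, limma adjusted p = 0.032). This call was lost without GMP replicate 1 or 2 or CD27- CMP replicate 2 or 3, and in the fit on these populations alone (adjusted p up to 0.12). With the replicate block Rab37 was also called between CD27+ CMP and GMP (1.91, limma adjusted p = 0.0049, against 0.057 without) and between GMP and MEP (-1.11, adjusted p = 0.012, against 0.14). A second probe set of Rab37 also had GMP lowest, below CD27+ CMP with a difference of 2.06 (limma adjusted p = 0.001, adjusted over all probe sets). Rab26, its nearest relative here, was above 0.10 on 1 array, the first of CD27- CMP at 0.77, and was not called.

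Late endosome and lysosome Rabs were called for 2 of 5 members between the CMP fractions and 3 of 5 between GMP and MEP, all higher in the CD27+ CMP or GMP. Rab7b, which works between late endosomes and the trans-Golgi network and limits Toll-like receptor signals, lay at 2.19, 1.20 and 1.14 in CD27+ CMP and 3.11, 3.12 and 3.24 in GMP. It lay at -1.93, -1.65 and -1.35 in CD27- CMP and -1.77, -1.22 and -1.14 in MEP. No array of the high populations overlapped with the low ones, and GMP was above CD27+ CMP. Rab7b differed by 3.15 (SE 0.29, limma adjusted p = 3.5e-05) between the CMP fractions and 4.53 (adjusted p = 2.7e-06) between GMP and MEP, and its other probe sets gave 1.23 and -0.01 in the first.

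Rab7, the general Rab of late endosome and lysosome fusion, moved far less. Its values were 0.43, 0.29 and 0.14 in CD27+ CMP, -0.08, 0.00 and -0.27 in CD27- CMP, 0.41, 0.00 and 0.32 in GMP and -0.19, -0.24 and -0.01 in MEP. The differences of 0.41 (limma adjusted p = 0.04) and 0.39 (adjusted p = 0.048) were kept in 9 and 7 of 20 alternatives, with adjusted p up to 0.17, and the second was lost with the replicate block (0.068). Rab9, which returns receptors from late endosomes to the Golgi, lay at 0.70, 0.50 and 0.37 in GMP and -0.21, -0.23 and -0.06 in MEP, with 0.33, -0.10 and 0.12 in CD27+ CMP and -0.30, -0.41 and 0.06 in CD27- CMP. GMP was above MEP by 0.69 (limma adjusted p = 0.0072). Rab9b was flat, with a range of 0.13 log2.

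Lysosome-related organelle Rabs gave 1 call of 2. Rab32, which sorts cargo to melanosomes and to phagosomes, lay at 1.28, 1.18 and 1.28 in CD27+ CMP and 2.51, 2.50 and 2.39 in GMP. It lay at -1.72, -2.16 and -1.18 in CD27- CMP and -1.65, -1.99 and -1.75 in MEP. Rab32 showed the same 3 steps as Rab3d, and no array of one step overlapped with another. Its differences were 2.93 (SE 0.20, limma adjusted p = 6.1e-06) between the CMP fractions and 4.26 (adjusted p = 4.6e-07) between GMP and MEP. Its relative Rab38 lay at 0.08, 0.62 and 0.51 in CD27+ CMP, 0.30, 0.15 and -0.18 in CD27- CMP, -0.45, -0.12 and -0.07 in GMP and -0.46, -0.35 and 0.07 in MEP. Rab38 was called between CD27+ CMP and MEP alone of the 6 comparisons (0.65, limma adjusted p = 0.042), a call kept in 10 of 20 alternatives (adjusted p up to 0.14).

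**Figure D4:**
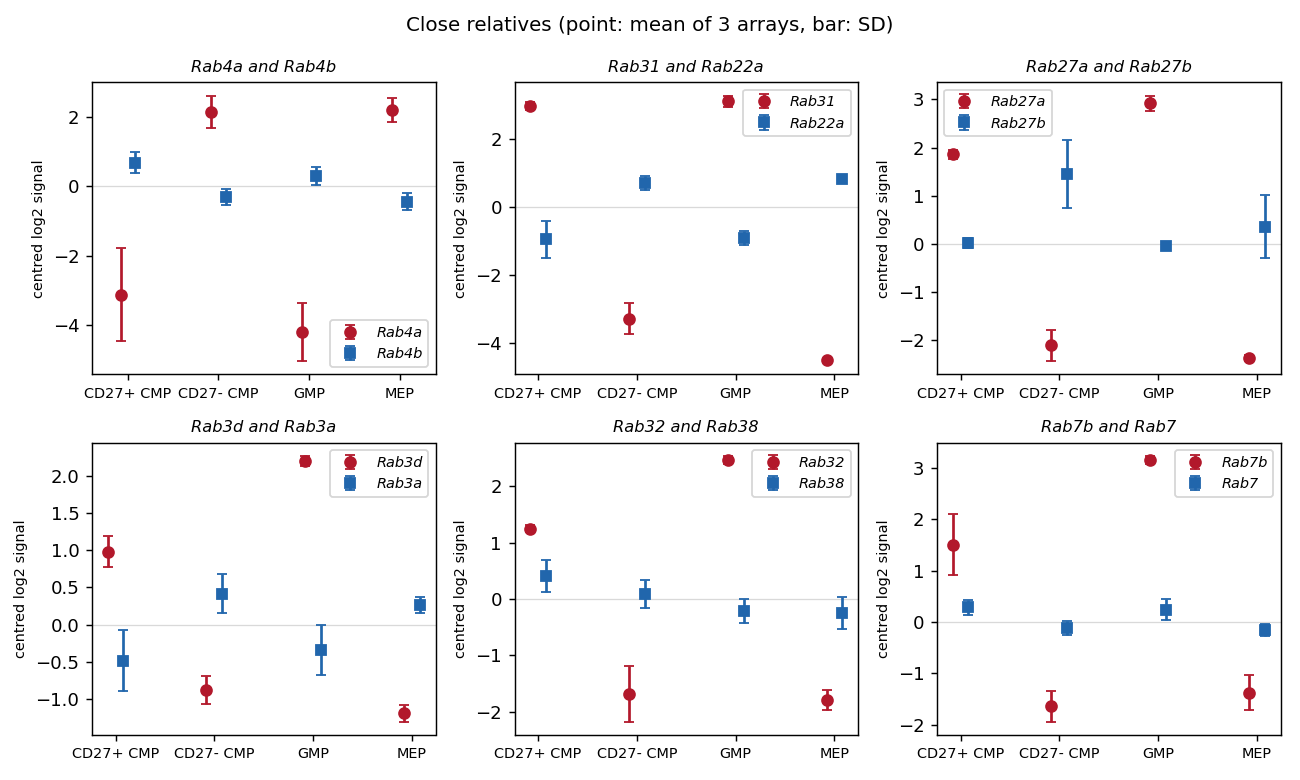
Group means of 3 arrays with SD as bars, on the centred log2 scale, for 6 pairs of closely related Rab genes. Rab4a against Rab4b and Rab31 against Rab22a have opposite orders of the populations, and within each of the other 4 pairs one member spans more log2 units than the other.

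ER to Golgi and Golgi Rabs carry early secretory cargo, and 3 of 16 were called in each of these comparisons, all higher. Their median difference was -0.01 between the CMP fractions and -0.04 between GMP and MEP, and those of all genes were -0.03 and -0.04. Rab2a, which tethers vesicles between the endoplasmic reticulum and the Golgi, lay at 0.61, 0.29 and 0.70 in CD27+ CMP and 0.92, 0.87 and 0.59 in GMP, against -0.94, -0.79 and -0.29 in CD27- CMP and -0.61, -0.78 and -0.69 in MEP. It rose by 1.21 (SE 0.17, limma adjusted p = 0.00069) and 1.49 (adjusted p = 0.00017), but of its 6 other probe sets 1 gave 1.20 between the CMP fractions and 5 gave 0.01 to 0.39.

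Rab2b was raised on the CD27+ CMP arrays at 1.53, 0.39 and 0.41, against -0.01, -0.09 and -0.14 in CD27- CMP, 0.05, 0.00 and -0.04 in GMP and 0.02, 0.00 and -0.13 in MEP. Its difference between the CMP fractions was 0.86 (SE 0.26, limma adjusted p = 0.04), a call kept in 9 of 20 alternatives, with adjusted p up to 0.19 and a first CD27+ CMP array that stood above the others. Rab33b, a Golgi Rab that also binds an autophagy complex, lay at 0.72, 0.34 and 0.70 in CD27+ CMP, -0.74, -0.34 and -0.08 in CD27- CMP, 0.77, 0.22 and 0.08 in GMP and -0.62, -0.15 and -1.01 in MEP. Rab33b was higher by 0.98 (limma adjusted p = 0.027) between the CMP fractions and 0.95 (adjusted p = 0.03) between GMP and MEP. The first call was lost without CD27+ CMP replicate 1 or 3 or CD27- CMP replicate 1 or 2. The second was lost without GMP replicate 1 or 2 or MEP replicate 1 or 3, and in the fit on GMP and MEP alone (adjusted p up to 0.11). With the replicate block the adjusted p of Rab33b between GMP and MEP was 0.063. Rab33a, a relative of Rab33b, ranged by 0.64 log2 and was not called.

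Rab34, which positions lysosomes near the Golgi and acts in ciliogenesis, varied most widely in CD27+ CMP. The CD27+ CMP arrays gave 0.03, 2.55 and 1.29, and the GMP arrays 2.47, 2.29 and 2.71. In CD27- CMP it lay at -0.09, -0.08 and -0.15 and in MEP at -0.03, -0.08 and -0.11. Rab34 was thus high on every GMP array, while the 3 CD27+ CMP arrays ran from the level of MEP to that of GMP. GMP was above MEP by 2.56 (SE 0.49, limma adjusted p = 0.0042), and the difference between the CMP fractions, 1.39, did not pass (adjusted p = 0.079). A second probe set gave 1.32 there (adjusted p = 0.029, over all probe sets). Rab1a, Rab1b, Rab6a and Rab6b, the general Rabs of the Golgi routes, were called in no comparison, and neither was Rab18 of lipid droplets, which lay at 1.08, 0.89 and 0.67 in MEP and from -1.81 to 0.49 elsewhere.

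Exocytic and cell surface Rabs gave 1 call of 5 in each of these comparisons: Rab12, which directs receptors to lysosomes, was higher by 0.61 (limma adjusted p = 0.0088) and 0.80 (adjusted p = 0.0018). Rab8a, Rab8b and Rab13 were not called. Of the cilium and autophagy Rabs, 1 of 3 was called between the CMP fractions: Rab24, linked to autophagy, had -0.63 ± 0.30 in CD27+ CMP and -0.06 ± 0.21 in CD27- CMP, a difference of -0.58 (limma adjusted p = 0.043) kept in 8 of 20 alternatives (adjusted p up to 0.14). Among the remaining 3, Rab40b, which carries a SOCS box for ubiquitin ligases, lay at 0.56, 2.02 and 1.40 in CD27- CMP and 0.47, 1.13 and 0.05 in MEP, and between -0.15 and -0.05 on all CD27+ CMP and GMP arrays. Rab30, a Golgi Rab, was called between GMP and MEP with the replicate block only (-0.18, limma adjusted p = 0.043, against 0.087 without). Rab40b differed between CD27+ and CD27- CMP by -1.44 (SE 0.35, limma adjusted p = 0.016, but 0.066 in the fit on these fractions alone), while its second probe set gave -0.04.

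CD27+ CMP and GMP were compared directly to see where the populations with similar Rab patterns part. In that comparison 5 Rab genes were called, all lower in CD27+ CMP, or 8.47% beside a background of 5.24% of all genes (2.59% higher, 2.65% lower). Among genes that ranged by at least 0.5 log2 the shares were 12.2% and 10.8%. They were Rab7b (-1.65, SE 0.29, limma adjusted p = 0.0099), Rab3d (-1.22, SE 0.12, adjusted p = 0.00047), Rab32 (-1.22, SE 0.20, adjusted p = 0.0081), Rab27a (-1.06, SE 0.15, adjusted p = 0.0029) and Rab21 (-0.70, SE 0.13, adjusted p = 0.016). For each of them all 3 GMP arrays were above all 3 CD27+ CMP arrays. The Rab21 call was lost without GMP replicate 1 or 2 or CD27+ CMP replicate 2 (adjusted p up to 0.064), and the Rab7b call in the fit on these populations alone (adjusted p = 0.078). Rab31, Rab44 and Rab17 were not called here, with differences of -0.15, -0.54 and 0.52. Mast cell, basophil and eosinophil markers moved with these genes: 5 of 8 were called, 4 lower and 1 higher in CD27+ CMP, and their part in the result was not tested. The 8 granulocyte-monocyte markers gave 0 calls here by limma, with an unadjusted p under 0.05 for 1.

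CD27- CMP and MEP showed no called Rab difference. The count was 0 of 59 by limma, beside a background of 0.033% of all genes (6 genes), and 5 Rab genes had an unadjusted p under 0.05, or 8.47% against 6.29% of all genes. Those 5 were Rab31 (1.22), Rab27b (1.10), Rab3d (0.31), Rab28 (-0.55) and Rab18 (-1.22), with limma adjusted p from 0.09 to 0.77. The CD27- CMP and MEP arrays of Rab31 did not overlap, at -3.73 or above and -4.48 or below. Without CD27- CMP replicate 3 the Rab31 difference was called, and so it was with all 12 arrays when genes that ranged by less than 0.5 log2 were left out. A p that misses the threshold does not show that the populations were equal.

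The remaining comparisons cross the CMP fractions with the other lineage and share arrays with those above, so they are not independent of them. CD27+ CMP against MEP gave 22 called Rab genes, 16 higher and 6 lower, or 37.3% beside a background of 24.8% (11.9% higher, 12.9% lower). Among genes that ranged by at least 0.5 log2 the shares lay closer, at 51.0% of Rab genes and 45.3% of all genes. To the genes above this comparison added Rab10, which carries cargo to the surface and differed by -0.63 (limma adjusted p = 0.02), and Rab38. The Rab10 call was lost without MEP replicate 1 or 2 or CD27+ CMP replicate 3, and with the mean of its probe sets the difference was -0.09 (adjusted p = 0.52). CD27- CMP against GMP gave 21, 7 higher and 14 lower, or 35.6% beside a background of 22.3% (10.2% higher, 12.1% lower). With the same range limit the shares in this comparison were 49.0% and 43.0%. Here Rab28, a ciliary Rab, differed by -0.64 (limma adjusted p = 0.04, kept in 9 of 20 alternatives with adjusted p up to 0.14), and the 7 higher genes were Rab4a (6.34), Rab37 (1.69), Rab22a (1.62), Rab27b (1.51), Rab40b (1.46), Rab35 (0.86) and Rab3a (0.76, kept in 6 of 20 alternatives).

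Whether the difference between GMP and MEP was larger than that between the CMP fractions was tested as a difference of differences. Of the Rab genes 3 passed, all with the smaller difference in the CMP fractions, or 5.08% beside a background of 2.06% of all genes (1.05% higher, 1.01% lower). Rab3d gave -1.53 (SE 0.17, limma adjusted p = 0.0022) and was called under all 19 alternatives. Rab27a gave -1.32 (SE 0.21, adjusted p = 0.013) and was lost under quantile normalization (adjusted p = 0.12). Rab31 gave -1.37 (SE 0.27, adjusted p = 0.037), and its call was kept in 5 of 19 alternatives, with adjusted p up to 0.84 and lost in 10 of the 12 leave-one-out fits and with the replicate block (0.09). Rab32, Rab2b and Rab7b did not pass but were called in 4, 2 and 1 of the 19 alternatives. Of these, Rab32 and Rab7b also had the smaller difference in the CMP fractions.

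Probe sets of a gene did not always give the same size. Tested one by one and adjusted over all probe sets, 33 of the 132 Rab probe sets were called between the CMP fractions, 24 higher and 9 lower, from 22 genes, and no gene had called probe sets in opposite directions. Between GMP and MEP 32 were called, 26 higher and 6 lower. For CD27+ CMP against GMP 12 were called, 1 higher and 11 lower. The share called among all probe sets was not counted, so these counts have no background of their own. With this adjustment and 1 probe set per gene, 32.2% of Rab genes and 20.6% of all genes were called between the CMP fractions. Between GMP and MEP the shares were 30.5% and 21.0%, and between CD27+ CMP and GMP 8.47% and 4.52%. For CD27- CMP against MEP the limma count was 0, and the unadjusted count by gene is the one already given.

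**Figure D5:**
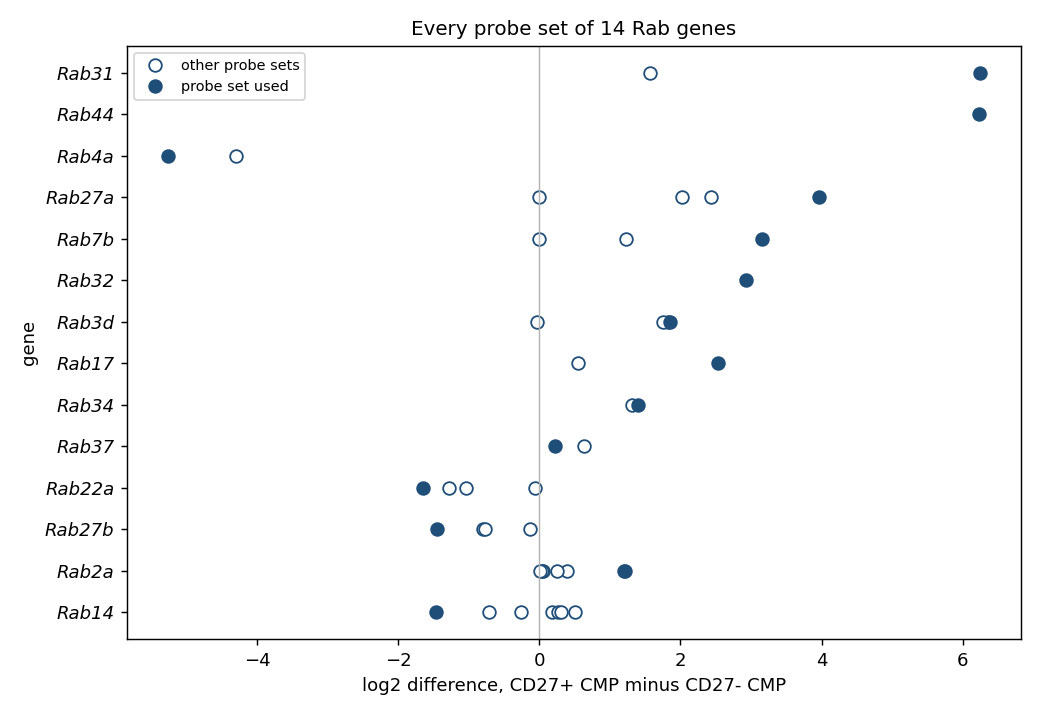
Log2 difference between CD27+ and CD27- CMP for every probe set of 14 Rab genes, filled where the probe set stands for the gene and open otherwise. For most genes the other probe sets lie on the same side and closer to 0, some lie at 0, and those of Rab14 lie on both sides.

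Regulators of Rabs were taken from 4 lists by role. Proteins that prenylate and recycle Rabs were measured for 7 of 8 genes, of which 1 was higher and 2 lower in CD27+ than in CD27- CMP, and 0 higher and 2 lower in GMP than in MEP. These are 42.9% and 28.6%, beside the background of 22.4% and 22.9% of all genes, which holds for the other lists too. Rabggtb, a subunit of the enzyme that attaches the prenyl groups, gave -1.09 and -0.997 (limma adjusted p = 0.0025 and 0.0039). Rabif, a Rab-binding chaperone also called Mss4, gave -0.73 and -0.65, and Gdi2, a GDP dissociation inhibitor, gave 1.25 (adjusted p = 0.048) between the CMP fractions.

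Activators of Rabs were called for 11 of 32 measured genes between the CMP fractions, 9 higher and 2 lower, and for 13 between GMP and MEP, 9 higher and 4 lower, or 34.4% and 40.6%. Rin3, an exchange factor for Rab5 and Rab31, rose by 4.38 (SE 0.34, limma adjusted p = 1.2e-05) in CD27+ CMP over CD27- CMP and by 5.72 (adjusted p = 1.8e-06) in GMP over MEP. Dennd1c, of the DENN exchange factors, gave 2.91 and 2.27, and Dennd2d gave 1.01 and 2.52. Rabgef1, also named Rabex-5 and an exchange factor for Rab5, ran against them with -2.65 and -2.02 (adjusted p = 4e-06 and 2.1e-05). Ankrd27, also known as Varp, an exchange factor for Rab21 that also binds active Rab32 and Rab38, gave -1.59 and -1.29. Rab3il1, an exchange factor first described with Rab3a, gave 1.71 between the CMP fractions (adjusted p = 0.027) and -1.18 between GMP and MEP (adjusted p = 0.11).

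GTPase-activating proteins switch Rabs off, and 9 of 38 were called between the CMP fractions, 6 higher and 3 lower, and 12 of 38 between GMP and MEP, 8 higher and 4 lower. Their shares were 23.7%, near the background, and 31.6%. Tbc1d2, also named Armus and a GTPase-activating protein of Rab7, gave 2.75 (SE 0.12, limma adjusted p = 3.3e-07) and 4.29 (adjusted p = 1.9e-08). Tbc1d10c, also named carabin, gave 3.80 and 3.17, and Tbc1d16, which acts on Rab4a, gave 2.58 and 1.36. Both genes were also higher in CD27+ CMP than in GMP, by 1.22 and 1.28 (limma adjusted p = 0.0085 and 0.013). A link of Tbc1d16 to the Rab4a transcript was not tested. Those lower in CD27+ CMP and GMP included Usp6nl, which acts on Rab5 (-1.89 and -2.02), and Tbc1d12 (-2.02 and -1.79), while Rabgap1l was called between GMP and MEP alone of the pair (-2.12, adjusted p = 0.024). Tbc1d2 followed the same 3 steps as Rab3d and Rab32: CD27+ CMP differed from GMP by -1.54 (adjusted p = 0.00013), and its difference of differences was -1.54 (adjusted p = 0.0023).

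Effectors carry out what an active Rab orders, and 16 of 49 measured genes were called between the CMP fractions, 13 higher and 3 lower, and 15 between GMP and MEP, 11 higher and 4 lower, or 32.7% and 30.6%. Mical1, an actin-oxidising enzyme bound by Rab35 and the Rab8 group, had the largest difference of all regulators listed, 5.64 (SE 0.33, limma adjusted p = 2e-06) and 7.12 (adjusted p = 3.7e-07). Sytl1, an effector of Rab27a in granule release, gave 1.76 and 2.25. Sytl2, Sytl4, Mlph, Myrip, Exph5 and Unc13d, also on this list, were not called between GMP and MEP (-0.07, 0.25, -0.02, -0.06, -0.05 and -0.74). Appl1, which binds Rab5 and Rab21 on early signalling endosomes, gave 2.45 and 2.73, and Micall1, a recycling effector of Rab35, gave 1.59 and 2.39. Rph3al, also named Noc2 and an effector of Rab3 and Rab27, ran the other way with -3.07 (adjusted p = 0.0007) and -3.25 (adjusted p = 0.00045), and Osbpl1a, an oxysterol-binding protein on Rab7 membranes, gave -0.58 and -1.59. Between CD27+ CMP and GMP the called counts were 0 of 7, 0 of 32, 5 of 38 and 2 of 49 for the 4 lists in this order, and between CD27- CMP and MEP they were 0 in each, by limma. In the latter comparison 2, 6, 4 and 3 of the lists' genes had an unadjusted p under 0.05, and for the lists with 0 calls between CD27+ CMP and GMP these numbers were 2 and 7.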

How the data were processed

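RNA of 12 arrays from 4 sorted populations, 3 each, was measured. The deposited values are log2 signals that the authors computed by GCRMA, according to the submitters' processing notes. Its version, the log base and the centring step were not given in the sources used here. From the values, every probe set was centred on its median over the 12 arrays (largest row median 5e-07 in size), and the span of the values is that of a base 2 logarithm, which the fold values assume. Of 45037 probe sets, 34945 had 1 annotated symbol, 932 several and 9160 none, by the platform annotation, and only the first were named. All 59 Rab genes matched RefSeq by gene number.

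Models were fitted with limma 3.58.1 in R 4.3.3 (lmFit and eBayes, 2-sided, 1 mean per population) to all probe sets and all 12 arrays, so the populations share 1 estimate of the spread. P-values were adjusted by Benjamini-Hochberg over 18193 genes, with the probe set of largest SD for each gene, and the threshold was 0.05. The 6 pairs of populations and 1 difference of differences were tested. The number of arrays limits the precision (median standard error 0.14 log2). The steps were tested on simulated data with normal noise drawn independently for each array. Of 50 changes each, 31 of 1 log2, 42 of 2 log2 and all of 4 and 6 log2 were called, with 12 false calls. This noise held no correlation between arrays, so the simulation does not cover that.

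Members, role lists, regulator lists and marker lists were chosen with earlier results of these data known. All 12 values are given for the 12 called genes with the largest range of group means and for close relatives of called genes. Flat relatives are given by their range. The choice of these 12 also required a called comparison in which the arrays of the populations did not overlap. The same 12 have the largest ranges of group means of all Rab genes without that condition. How often arrays do not overlap among all genes was not counted, so lack of overlap has no background here. Of each regulator list, up to 6 called genes with the largest differences are named. Alternatives were the mean of all probe sets, quantile normalization, centring of arrays, a range filter of 0.5 log2, robust moderation, adjustment over all probe sets, a fit on the compared populations alone, a replicate block and leaving out each array. By the data, not the labels, replicate numbers pair GMP with MEP and with CD27+ CMP: deviations from group means over 15263 probe sets correlated at 0.27 to 0.58 and 0.23 to 0.57 in all 3 pairs of each. The block was fitted to all 12 arrays. Array weights could not be fitted. Motifs were searched in the 250 bases before each start site. Protein sequences are not used here.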

Additional observations from a re-analysis of the deposited data

Results flagged for a closer look

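For 3 Rab genes the difference between the CMP fractions was not the same as that between GMP and MEP, by limma's test of the difference of differences, which used all 12 arrays. Rab3d gave -1.53, from 1.86 between the CMP fractions and 3.39 between GMP and MEP. Rab27a gave -1.32, from 3.97 and 5.29. Rab31 gave -1.37, from 6.24 and 7.61, and was called in 5 of 19 alternatives. Rab32, Rab2b and Rab7b missed the threshold but were called in 4, 2 and 1 of the 19, so the result is not particular to these 3 genes. For Rab3d and Rab27a the GMP arrays lay above the CD27+ CMP arrays, whereas for Rab31 the CD27+ CMP and GMP arrays overlapped and the MEP arrays lay below the CD27- CMP arrays. Groups of 3 arrays were not tested for single outlying arrays.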

How the results depend on the processing

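Counts of called Rab genes stayed within 1.5 times the reported ones in 5 of the 7 comparisons, with 18 to 23 (CD27+ against CD27- CMP), 16 to 22 (GMP against MEP), 4 to 7 (CD27+ CMP against GMP), 17 to 25 (CD27+ CMP against MEP) and 17 to 24 (CD27- CMP against GMP). In CD27- CMP against MEP the count went from 0 to 1 with the range filter of 0.5 log2 and without CD27- CMP replicate 3, in both cases Rab31. The difference of differences gave 3 called genes, 1 under quantile normalization and 2 to 4 when 1 array was left out. Leaving out 1 array at a time gave 18 to 22 (CD27+ against CD27- CMP), 16 to 21 (GMP against MEP), 4 to 6 (CD27+ CMP against GMP), 0 to 1 (CD27- CMP against MEP), 17 to 24 (CD27+ CMP against MEP) and 18 to 22 (CD27- CMP against GMP). Of the 92 calls, 66 were kept under every alternative run, 26 were lost under some and 0 changed direction. Outside the paired populations, not every same-numbered pair had deviations correlated above 0.1 (r from -0.33 to 0.40). With the replicate number as a block the counts in the same order were 21, 19, 6, 0, 24 and 23, with 2 for the difference of differences. Beside the changes given above, the block ended the calls of Rab33b and Rab7 between the CMP fractions (adjusted p = 0.058 and 0.059) and of Rab38 between CD27+ CMP and MEP (0.053). It added Rab43 between the CMP fractions and between CD27- CMP and GMP (0.0052 and 0.011), Rab1a in the latter (0.039), and Rab30, Rab37 and Rab5b between CD27+ CMP and MEP (0.031, 0.043 and 0.033), and it changed no other Rab call. Array weights were not run to a result, since the estimate did not converge. Each probe set is centred on its own median, so signal over background is unknown, and low values may stand at a floor that understates a difference.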
